A study of Homo sapiens with 12 samples.

Results

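The kinesin motor genes were examined in parental HCT116 Tet-OsTIR1 cells and in SDS22-degron cells, a line derived from them, with and without Dox/IAA. HCT116 is a human colorectal carcinoma-cell line. Every library, controls included, came from cells with a transgene for OsTIR1, a plant F-box protein, at the AAVS1 locus behind a tetracycline-inducible promoter. In SDS22-degron cells, labelled as genotype HCT116 Tet-OsTIR1 SDS22 WT (SDS22), the endogenous gene PPP1R7 also encodes a C-terminal mAID-mClover tag on SDS22, a regulatory partner of the protein phosphatase PP1. Dox switches on OsTIR1 and the auxin IAA then directs the tagged protein to the proteasome. Cells of each line had either no treatment or 48 h of Dox (2 µg/ml) together with IAA (500 µM), and 3 biological replicates of each of the 4 conditions gave 12 libraries. The degron cells were obtained from picked colonies, and the number of clones behind the sequenced line is not given in the sources used here.

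The members are all protein-coding genes of the deposited table whose symbol is KIF or KIFC followed by a number, except KIF1BP, which encodes a kinesin-binding protein and not a motor. This rule gave 42 of the 58233 genes, and it used no measured value. Of these, 14 encode motors with their main known work in mitosis, 17 encode motors of cargo and organelle transport, and 11 fall in neither class or have an uncertain or ciliary role. These classes were set with earlier results of these data known. KIF2A, a spindle pole motor, was placed in the last class. Sufficient counts for a test were found for 36 members, 13 of them mitotic, 16 transport and 7 other, among 16657 tested genes. The gene KIF2B had 0 counts in all 12 libraries, which allows up to 3 counts, or between 0.206 and 0.253 CPM (counts relative to the TMM-normalised library size). The remaining untested members were KIF1A, with at most 3 counts in a library, KIF19 with at most 2, and KIF6, KIF7 and KIF25 with at most 1.

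Most kinesins walk along microtubules with the energy of ATP hydrolysis, and some take microtubule ends apart instead. The mitotic kinesins separate the spindle poles, move and align the chromosomes, trim microtubule ends and build the central spindle on which cytokinesis depends. Many of their genes are transcribed in a cell-cycle-dependent manner and peak in G2 and M, whereas the transport kinesins carry vesicles, organelles, mRNAs and ciliary cargo also outside mitosis.

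The libraries held between 12133915 and 14657508 counts on genes, and no library stood apart in its correlation with its own group, which was between 0.991 and 0.994 on the log2 CPM scale. The mRNA of PPP1R7 ranged from 40.1 to 51.1 CPM over all libraries, so the mRNA is no check of the depletion, which acts on the protein. Epithelial markers summed to between 735 and 1146 RPKM (CPM per 1000 bases of the gene model) in every library. Fibroblast markers summed to between 1.01 and 3.23 RPKM, with 3 of 4 at 0 throughout. Markers of haematopoietic, endothelial and neuronal cells remained at or below 0.478 RPKM in sum.

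Per length, the transport motor KIF5B, the ubiquitous heavy chain of kinesin-1, had the highest mean level of the family in each condition, between 64.5 and 71.4 RPKM. KIF1C, a kinesin-3 motor of Golgi and dense-core vesicle traffic, came next in 3 conditions, with 35.3 RPKM in parental untreated, 39.0 RPKM in parental Dox/IAA and 35.2 RPKM in treated degron cells. In untreated degron cells, the mitotic KIF20A (35.8 RPKM) and KIF1C (35.5 RPKM) did not differ beyond the spread of their libraries. The mitotic depolymerase KIF2C was in the third place in parental cells, with 32.2 RPKM untreated, level with KIF22. In treated degron cells the third place was held by the transport motor KIF3B (23.6 RPKM), and KIF2C was at 12.2 RPKM. In parental untreated cells, the mean levels of the 13 tested mitotic kinesins lay between 5.81 RPKM for KIF4B and 32.2 RPKM for KIF2C.

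The summed level of the mitotic kinesins was 233, 269 and 236 RPKM in the parental untreated libraries, 197, 264 and 206 RPKM in the parental Dox/IAA libraries, and 248, 248 and 246 RPKM in the untreated SDS22-degron libraries. In the Dox/IAA-treated SDS22-degron libraries it was 112, 100.2 and 91.5 RPKM, below every other library. The group means were 246 ± 19.6, 223 ± 36.4, 247 ± 1.49 and 101 ± 10.3 RPKM in that order (SD, n = 3). The summed transport kinesins moved much less, with means of 165 ± 5.13, 190 ± 4.97, 176 ± 1.59 and 186 ± 8.52 RPKM. Mitotic motors thus made up 56.9% ± 1.12, 50.9% ± 3.26 and 55.2% ± 0.127 of the summed family RPKM in the first 3 conditions and 32.7% ± 2.93 in the last. Of all counts in a library, mitotic kinesins took between 0.0423% and 0.0532% in these cells and between 0.0913% and 0.126% elsewhere.

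**Figure D1:**
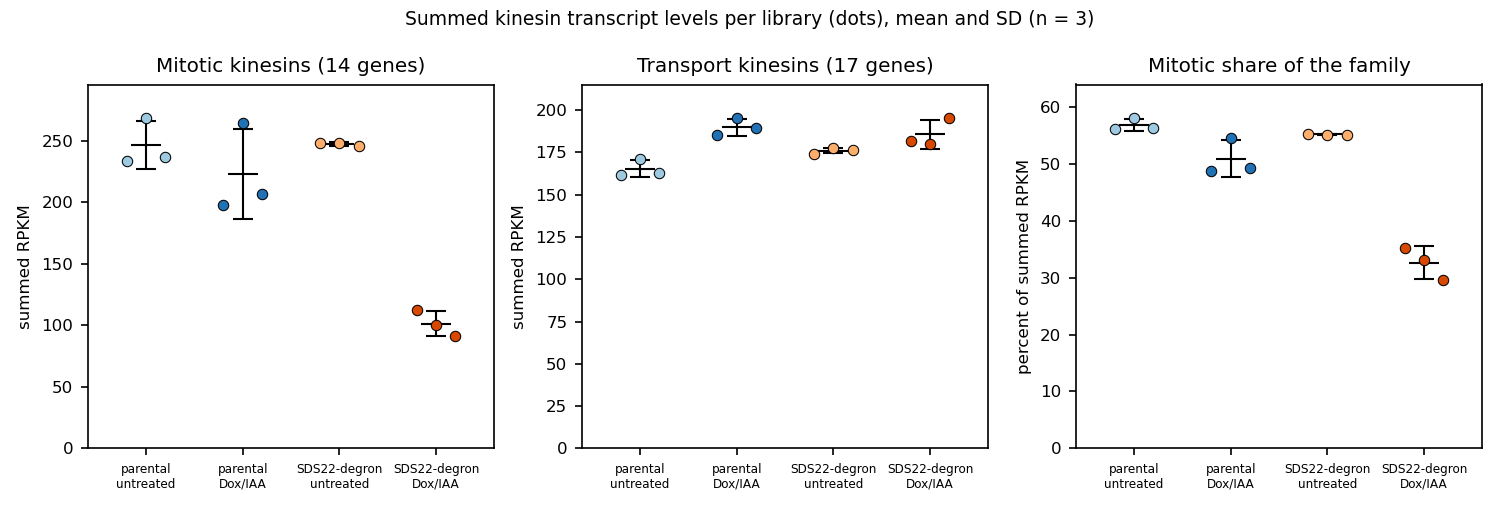
Summed RPKM of the 14 mitotic kinesins (left) and the 17 transport kinesins (middle), and the mitotic percentage of the summed RPKM of all 42 kinesins (right), in each library of the 4 conditions (dots, replicates 1 to 3 from left to right), with mean and SD (n = 3). The mitotic sum of the Dox/IAA-treated SDS22-degron libraries lies between 91.5 and 112 RPKM, and the lowest other library is at 197 RPKM.

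Upon Dox/IAA addition, 16 of the 36 tested kinesins were lower and 12 higher in SDS22-degron cells, where 51.5% of all tested genes were called in either direction. All 13 tested mitotic kinesins fell upon Dox/IAA addition in SDS22-degron cells, to a median of 42.3% of the untreated level (edgeR quasi-likelihood F test, adjusted p under 0.05 over all tested genes). The median log2 fold change was −1.24, with a range from −1.55 for KIF18B to −1.07 for KIF18A, while the median of all tested genes was 0.00. In this comparison, 25.5% of all tested genes fell, and the libraries of both conditions did not overlap for 29.7% of genes in this direction, against 13 of 13 mitotic kinesins. By the cut-off of the study (here the quasi-likelihood p under 0.05 before adjustment, and a log2 fold change beyond 1 in either direction), 13 of 13 mitotic kinesins were lower, as were 4.02% of all tested genes. In these bulk libraries, fewer cells in mitosis and less kinesin mRNA per cell cannot be told apart.

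The parental cells answered the same question without the degron. Here, 2 kinesins were lower and 10 higher, and 31.6% of all genes were called. Of the mitotic kinesins, KIF15 and KIF18A fell, with log2 fold changes of −0.37 and −0.54, and 11 of the 13 mitotic kinesins were not called. The fall was seen in 15.7% of all tested genes. Libraries did not overlap for these 2, and for 20.2% of all genes in the same direction. The median log2 fold change of the mitotic kinesins was −0.10. With the replicate number as a block, which pairs the samples in this comparison, 4 fell, as KIF20A and KIF22 were added. With the block, 2986 of all 16657 tested genes fell. Without the second parental Dox/IAA library, which had the highest mitotic sum of its group, 7 of the 13 fell, against 2557 of 16937 tested genes. The second parental untreated library, at 269 RPKM also the highest of its group, was kept in that fit.

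The difference between both responses (interaction) was below zero for all 13 mitotic kinesins and passed the test for each, against 8.35% of all tested genes. Its median was −1.19 on the log2 scale, and 10 of 13 passed the cut-off of the study, as did 2.46% of all genes. The values ranged from −1.59 for KIF14 to −0.53 for KIF18A. The interaction subtracts the parental response, so the fall of KIF18A and KIF15 in parental cells makes their interactions smaller by definition. The plot of the Dox/IAA responses shows both terms. Without the second parental Dox/IAA library, the median interaction was −1.02.

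**Figure D2:**
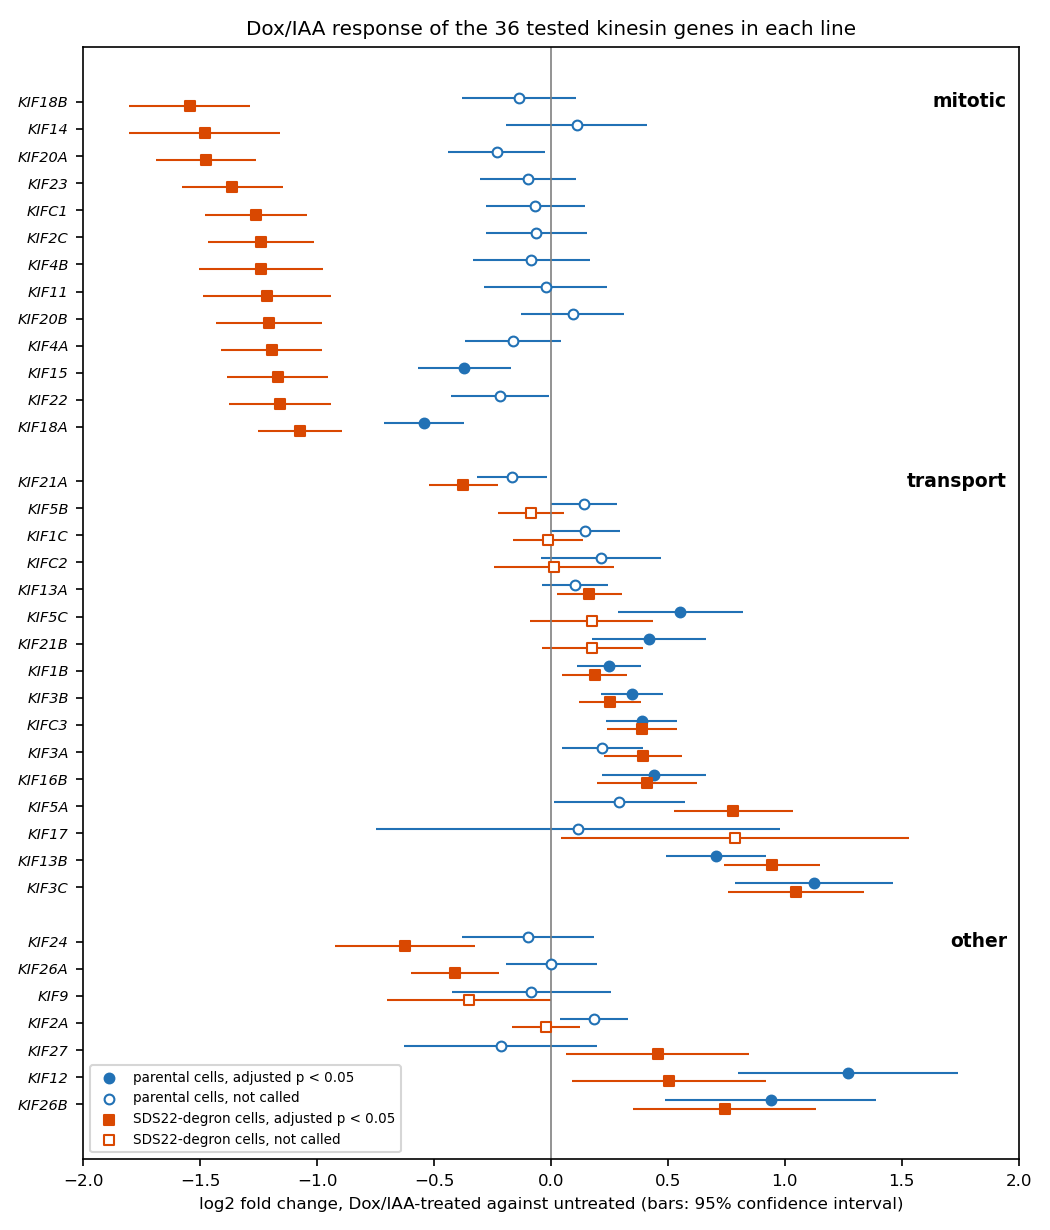
Log2 fold change upon Dox/IAA addition in parental cells (circles) and SDS22-degron cells (squares) for the 36 tested kinesin genes, grouped by class and ordered by the response of SDS22-degron cells. Bars are 95% confidence intervals and filled symbols passed an adjusted p of 0.05. All 13 mitotic squares lie between −1.55 and −1.07, whereas the transport symbols of both lines lie mostly near or above zero.

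Between the treated lines, the comparison that the study plots, all 13 mitotic kinesins were lower in SDS22-degron cells, against 23.1% of all tested genes. In the whole family 15 were lower and 5 higher, and 44.9% of all genes were called. The median of the mitotic kinesins was −1.06, or 47.9% of the parental level, and 10 of 13 passed the cut-off of the study, against 3.38% of all genes. The libraries of both lines did not overlap for any of the 13, and for 27.2% of all genes in this direction. The comparisons share libraries, so the counts are given side by side and not as independent evidence.

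Before any treatment, the mitotic kinesins of both lines lay closer together, with a median log2 difference of 0.09 (SDS22-degron against parental). In SDS22-degron cells, KIF15, KIF18A and KIF22 were lower, as were 15% of all tested genes, and KIF20A and KIF20B were higher, as were 13.2%. Either call was made for 28.2% of all genes. The libraries of 4 mitotic kinesins lay wholly lower and of 3 wholly higher, against 21.9% and 21.6% of all genes. By the cut-off of the study, 0 of the 36 kinesins differed, against 1.3% of genes that were lower and 2.84% that were higher. An unadjusted p under 0.05 in edgeR was found for 16 of the 36, with smaller log2 differences than the cut-off. Of the 16657 tested genes, 6447 had such a p. The log2 differences of the 5 called mitotic kinesins lay between −0.51 for KIF18A and 0.43 for KIF20B. Genes of chromosome 3, which holds KIF15, had a median difference of −0.27 between the untreated lines, and genes of chromosome 16, which holds KIF22, of −0.30. The part of these chromosome-wide differences in the values of KIF15 (−0.42) and KIF22 (−0.33) was not tested. KIFC3, also on chromosome 16, differed by 0.01. The number of mitotic kinesins called between the untreated lines was 3 instead of 5 without the first or without the third untreated SDS22-degron library.

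Among the motors of the spindle poles, KIF11 pushes antiparallel microtubules apart to make the spindle bipolar, and cells need it to separate their centrosomes. KIF11 was measured at 84.2, 104 and 80.0 CPM in parental untreated libraries, 72.0, 109.9 and 82.7 CPM in parental Dox/IAA libraries, 103, 107 and 98.4 CPM in untreated SDS22-degron libraries, and 49.4, 45.1 and 38.5 CPM in Dox/IAA-treated SDS22-degron libraries. The last 3 values were lower than the other 9, which overlapped with each other. The log2 fold change was −1.21 (SE 0.130, adjusted p = 4.59e-07) in SDS22-degron cells and −0.02 (95% confidence interval from −0.29 to 0.24) in parental cells.

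KIFC1, a minus-end-directed motor that focuses spindle poles, stood at 82.5, 103 and 101 CPM in parental untreated, 79.6, 108 and 86.3 CPM in parental Dox/IAA, 104, 104 and 107 CPM in untreated degron, and 46.5, 45.3 and 39.6 CPM in treated degron libraries. Again the treated degron libraries lay below all others. The untreated degron libraries lay just above the parental untreated ones, a log2 difference of 0.14 that was not called. Its response was −1.26 (SE 0.105, adjusted p = 2.37e-08) in SDS22-degron cells and −0.07 in parental cells, with an interaction of −1.19 (SE 0.145, adjusted p = 4.53e-05). The remaining motor of this group, KIF15, which holds the spindle bipolar alongside KIF11, had 42.7, 39.7 and 36.4 CPM in parental untreated libraries and between 28.9 and 32.6 CPM in parental Dox/IAA and untreated degron libraries. It had 15.4, 12.0 and 11.9 CPM in treated degron libraries. KIF15 differs from KIF11 and KIFC1 in that each of the other conditions was already below the parental untreated cells, with log2 differences of −0.37 upon Dox/IAA and −0.42 between the untreated lines.

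Of the motors at chromosomes and microtubule plus ends, KIF18B, which restrains the growth of astral microtubules, had the lowest log2 fold change upon Dox/IAA in SDS22-degron cells among the 36 tested kinesins, ahead of KIF14 (−1.48) by less than its standard error. Its levels were 68.5, 86.4 and 80.9 CPM in parental untreated, 62.6, 89.7 and 62.5 CPM in parental Dox/IAA, 90.5, 85.8 and 83.7 CPM in untreated degron, and 31.4, 31.0 and 26.6 CPM in treated degron libraries. The treated degron libraries were thus at 34.3% of the untreated level, with a log2 fold change of −1.55 (SE 0.123, adjusted p = 1.56e-08). KIF2C, which depolymerises microtubules at centromeres to correct wrong attachments, had 117, 119 and 115 CPM, then 94.9, 137 and 106 CPM, then 101, 104 and 109.8 CPM, and 50.2, 42.6 and 40.3 CPM in the same order of conditions. It showed the same separation of the treated degron libraries, with a log2 fold change of −1.24 (SE 0.108, adjusted p = 4.13e-08).

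KIF18A, which dampens the oscillations of aligning chromosomes, was the exception in this group. It was at 99.4, 99.2 and 99.9 CPM in parental untreated libraries, 64.8, 73.8 and 66.3 CPM in parental Dox/IAA, 72.8, 72.2 and 64.8 CPM in untreated degron, and 37.2, 33.5 and 29.0 CPM in treated degron libraries. The levels formed 3 steps, since parental Dox/IAA and untreated degron libraries overlapped with each other and with neither of the remaining conditions. Its fall in parental cells was −0.54 (SE 0.0809, adjusted p = 8.05e-05), and the further difference in degron cells was −0.53 (SE 0.118, adjusted p = 0.00534). The chromokinesin KIF22, which pushes chromosome arms away from the poles, fell by 1.16 on the log2 scale in degron cells, and KIF4A, which shortens central spindle microtubules together with PRC1, fell by 1.19.

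KIF4B, an intronless copy of KIF4A, is uncertain as a separate member. Its counts were between 33.7% and 44.0% of those of KIF4A in every library, and its log2 fold changes differed from those of KIF4A by little (−1.24 against −1.19 in SDS22-degron cells). How reads that match both genes were counted is not given in the sources used here. The processed pseudogene KIF4CP had between 2 and 16 counts per library.

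In the central spindle group, KIF23 forms the centralspindlin complex with RACGAP1 and recruits the cytokinesis machinery. Its levels were 123, 148 and 122 CPM in parental untreated, 108, 143 and 117 CPM in parental Dox/IAA, 136, 136 and 130.4 CPM in untreated degron, and 58.3, 48.2 and 50.0 CPM in treated degron libraries. The log2 fold change in degron cells was −1.36 (SE 0.102, adjusted p = 8.3e-09), against −0.10 in parental cells. KIF20A, which brings the chromosomal passenger complex to the central spindle, was at 107, 132 and 109 CPM, then 90.2, 116 and 89.9 CPM, then 140.1, 138 and 148 CPM, and 55.4, 51.6 and 46.1 CPM in the same order.

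For KIF20A, the untreated degron libraries were all above the parental ones (log2 difference 0.29, adjusted p = 0.0334, not past the threshold with a GC correction, without parental untreated replicate 1 or 3, or without any of the untreated degron libraries). The fall in degron cells, by 1.47 on the log2 scale, therefore began from a higher level. KIF14, a midbody motor that binds PRC1 and citron kinase, had the largest interaction of the 13, with 63.7, 85.6 and 56.5 CPM in parental untreated, 65.5, 93.5 and 63.4 CPM in parental Dox/IAA, 79.5, 82.1 and 68.9 CPM in untreated degron, and 31.1, 25.6 and 25.8 CPM in treated degron libraries. KIF20B, required for the completion of cytokinesis, was higher in the untreated degron line (0.43, adjusted p = 0.00446) and fell by 1.21 upon Dox/IAA.

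**Figure D3:**
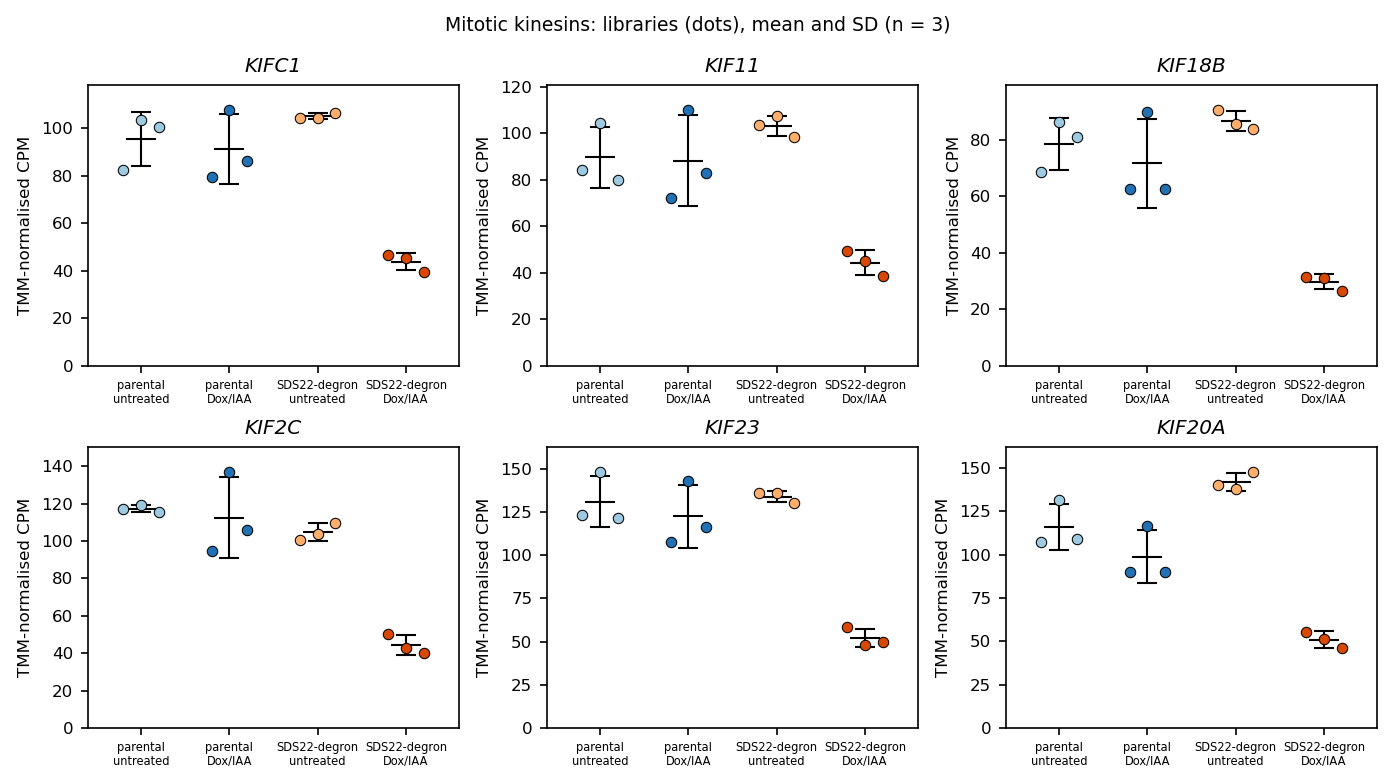
TMM-normalised CPM of KIFC1, KIF11, KIF18B, KIF2C, KIF23 and KIF20A in each library of the 4 conditions (dots, replicates 1 to 3 from left to right), with mean and SD (n = 3) on axes that begin at 0. In each panel the 3 Dox/IAA-treated SDS22-degron libraries lie below the other 9, and the second replicate is the highest of the parental Dox/IAA group.

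The second parental Dox/IAA library had the highest level of its group in all 6 of these genes. In the sum of 10 G2/M markers, the same library had 564 RPKM and its group began at 395 RPKM. Parental untreated libraries ranged from 491 to 609 RPKM in this sum and untreated degron libraries from 563 to 569.6 RPKM, while treated degron libraries ranged from 181 to 220.5 RPKM. Upon Dox/IAA in SDS22-degron cells, all 10 markers fell, with a median of −1.47, against 25.5% of all tested genes. In parental cells 2 of 10 fell by this test, near the 15.7% of all genes. All 10 values were below zero there, from −0.35 to −0.02, with a median of −0.21. The median of all tested genes was 0.00 in that comparison. The mitotic kinesins moved together with these markers, and their part in the kinesin values was not tested.

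The promoters of the mitotic kinesins were examined because the genes fell together. The cell cycle genes homology region (CHR, searched as TTTGAA on both strands) and the CCAAT box, read by NF-Y, are elements of many genes with a peak in G2 and M. In the RefSeq promoter windows of GRCh38.p14, from 250 bases before to 50 bases after an annotated start, all 14 mitotic kinesins were matched, with 15 windows since KIF22 has 2. The CHR hexamer was present in 10 of 15 windows (66.7%), against 15.2% of all 35116 windows. CCAAT was found in 11 (73.3%), against 34.6%, and both together in 9 (60%), against 5.9%. E2F letters (TTCCCGC or TTGGCGC, both strands) occurred in 3 windows (20%), against 9.23%. These figures describe letters in a window, and no binding was measured.

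The stretches below show the nearest pair of both elements with 8 flanking bases, 5′ to 3′ along the gene, for 8 of the 9 genes that have both. Capitals mark the CCAAT box (CCAAT, or ATTGG on the other strand) and the CHR hexamer (TTTGAA, or TTCAAA on the other strand).
KIF11, chr10:92593069-92593115, plus strand: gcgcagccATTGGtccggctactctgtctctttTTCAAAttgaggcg
KIFC1, chr6:33391769-33391840, plus strand: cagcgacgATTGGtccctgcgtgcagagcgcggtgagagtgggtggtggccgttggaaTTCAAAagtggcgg
KIF18A, chr11:28108153-28108209, minus strand: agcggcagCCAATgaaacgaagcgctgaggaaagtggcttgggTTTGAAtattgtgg
KIF18B, chr17:44947758-44947813, minus strand: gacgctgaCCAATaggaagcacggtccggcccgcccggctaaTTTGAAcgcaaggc
KIF4A, chrX:70290038-70290083, plus strand: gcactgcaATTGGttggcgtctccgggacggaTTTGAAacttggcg
KIF4B, chr5:155013726-155013771, plus strand: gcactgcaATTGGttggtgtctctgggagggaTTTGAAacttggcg
KIF14, chr1:200620737-200620781, minus strand: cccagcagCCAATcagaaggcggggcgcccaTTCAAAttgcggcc
KIF23, chr15:69414277-69414307, plus strand: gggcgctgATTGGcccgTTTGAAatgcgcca

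In all 9 genes the CCAAT box lay before the hexamer, with between 4 bases (KIF23) and 117 bases (KIF20B, not shown) between them, so no pair overlapped. KIF20B has a pair of adjoining hexamers. The stretches of KIF4A and KIF4B were identical in 43 of 46 bases. The 10 tested mitotic kinesins with a hexamer had log2 fold changes from −1.55 to −1.07 in SDS22-degron cells, and the 3 without one, KIF20A, KIF22 and KIF2C, had values from −1.47 to −1.16, within that range. A hexamer in this window did not separate larger from smaller falls among these genes.

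Windows were matched for 12 of 17 transport and 8 of 11 other kinesins, under 80% in both, so no share is compared for these classes. Some transport windows held the elements. KIF5B, which Dox/IAA did not change past the threshold in either line, had 1 hexamer and 1 CCAAT box. KIF3B and KIF1B, which rose in both lines, had a CCAAT box in a window. As an example of a transport kinesin that rose, the window of KIF3C (chr2:25982448-25982747, minus strand, 300 bases) held neither element nor the E2F letters, and therefore has no capitals.
KIF3C: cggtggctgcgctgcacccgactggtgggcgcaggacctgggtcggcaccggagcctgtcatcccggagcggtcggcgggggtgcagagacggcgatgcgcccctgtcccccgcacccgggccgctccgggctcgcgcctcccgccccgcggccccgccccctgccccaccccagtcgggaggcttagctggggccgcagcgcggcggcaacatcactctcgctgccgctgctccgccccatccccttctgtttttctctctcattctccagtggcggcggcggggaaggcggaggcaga

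The transport kinesins showed another pattern. In SDS22-degron cells, Dox/IAA raised 9 of the 16 tested transport kinesins and lowered 1, KIF21A, with a median log2 fold change of 0.22. In the same comparison, 26% of all tested genes rose. In parental cells 8 rose and none fell by the same test, with a median of 0.27, against 15.9% of all tested genes that rose. With the replicate block 9 rose, as KIF3A (0.22, adjusted p = 0.0509 without the block) was added. With a GC correction, alone or with the block, 1 transport kinesin fell, and likewise without the second parental Dox/IAA library. With the block and the correction this was KIF21A. The unadjusted p was under 0.05 for 11 of 16 in parental cells, and for 6945 of the 16657 tested genes. Treated libraries lay above untreated ones without overlap for 10 transport kinesins in degron cells and 12 in parental cells, against 30.2% and 21.1% of all genes. By the cut-off of the study, 1 transport kinesin, KIF3C, was higher in each line, against 3.82% and 2.35% of all genes.

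The difference between both responses passed the test for 0 of 16 transport kinesins with edgeR's quasi-likelihood test, its likelihood ratio test and DESeq2. At an unadjusted p under 0.05, it was 3, the kinesin-1 genes KIF5A, KIF5B and KIF5C, against 4779 of the 16657 tested genes. Without the second parental untreated library all 3 of these kinesins passed the adjusted threshold. Of the 16947 genes tested in that fit, 1781 were called lower and 1176 higher. With all libraries, the interaction was called for 14.4% of all tested genes.

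KIF3C, a neuronal-enriched kinesin-2 motor that pairs with KIF3A, had the largest rise of the transport kinesins in both lines. It was at 6.75, 7.04 and 9.15 CPM in parental untreated, 15.4, 15.2 and 19.4 CPM in parental Dox/IAA, 13.6, 15.1 and 16.6 CPM in untreated degron, and 28.8, 26.8 and 38.3 CPM in treated degron libraries. The untreated degron and the parental Dox/IAA libraries overlapped, between the lowest and the highest condition. KIF3C rose by a log2 fold change of 1.12 (SE 0.162, adjusted p = 5.89e-05) in parental and 1.05 (SE 0.138, adjusted p = 4.94e-06) in degron cells. The difference of these responses was −0.07, with a 95% confidence interval from −0.52 to 0.37. Without treatment it was already 1.97 times as high in degron cells, or 0.98 on the log2 scale (adjusted p = 0.000182).

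KIF13B, a kinesin-3 motor that carries phosphoinositide and scaffold cargo to the cell periphery, had a like order of conditions. Its libraries gave 25.7, 24.3 and 29.3 CPM, then 48.7, 37.8 and 42.6 CPM, then 34.6, 36.7 and 35.8 CPM, and 68.0, 62.1 and 76.3 CPM, with no overlap between any of the 4 conditions. The log2 fold change was 0.71 (adjusted p = 6.37e-05) in parental and 0.95 (adjusted p = 2.66e-07) in degron cells, and the difference between these was 0.24, with an interval from −0.06 to 0.54. The remaining kinesin-3 genes moved less, since KIF16B, an endosomal motor, rose by 0.44 and 0.41 in both lines and KIF1B by 0.25 and 0.19 (in degron cells not past the threshold without the third treated or any 1 untreated degron library, or without a filter on low counts). KIF13A was at 0.10 and 0.16, and its call in degron cells (adjusted p = 0.0476) was lost in 15 of 22 alternatives. KIF1C, the most abundant gene of this subfamily, was at 0.15 and −0.01 and called in neither line.

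Among the kinesin-1 heavy chains, KIF5A, which is best known from axons, was at 8.27, 6.49 and 8.32 CPM in parental untreated, 9.75, 9.01 and 9.44 CPM in parental Dox/IAA, 9.92, 8.80 and 7.90 CPM in untreated degron, and 14.1, 16.6 and 15.1 CPM in treated degron libraries. The treated degron libraries were above the other 9. The log2 fold change was 0.78 (SE 0.122, adjusted p = 3.23e-05) in degron cells and 0.29 (adjusted p = 0.105) in parental cells, with an interaction of 0.49 (adjusted p = 0.0796). KIF5C had an interaction of −0.38 (adjusted p = 0.171), with a response of 0.55 in parental cells (adjusted p = 0.00296) and 0.17 in degron cells. The abundant KIF5B remained between 356 and 449 CPM in all libraries, with responses of 0.14 and −0.09 that did not pass the test.

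KIFC3, a minus-end-directed motor at adherens junctions and the Golgi, was at 43.2, 40.0 and 45.0 CPM in parental untreated, 59.0, 54.9 and 53.7 CPM in parental Dox/IAA, 41.6, 41.8 and 45.4 CPM in untreated degron, and 55.9, 56.1 and 56.7 CPM in treated degron libraries. Treated and untreated libraries did not overlap, whichever the line. It rose by 0.39 in both lines (adjusted p = 0.000547 in parental and 0.000164 in degron cells), and the interaction was 0.00, with an interval from −0.21 to 0.21. KIF21A, which holds microtubule growth at the cell cortex in check, was the transport kinesin that fell in degron cells, by 0.37 on the log2 scale, and it stood at −0.17 (adjusted p = 0.0807) in parental cells.

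Between the untreated lines, 4 transport kinesins were higher in degron cells (KIF3C, KIF21B, KIF13B and KIF3A) and KIF1B was lower, with a median of 0.13. Of all tested genes, 13.2% were higher and 15% lower, and 28.2% were called in either direction, so the 5 of 16 were near the background. The call of KIF1B (−0.18, adjusted p = 0.0452) was lost in 13 of 22 alternatives, among them 2 other scalings, the lack of a filter and each untreated degron library left out. The number called was 3 instead of 5 without the second untreated degron library, where KIF3A was lost as well. KIF21B, a motor that pauses microtubule growth in neurons and lymphocytes, had 8.69, 7.58 and 9.56 CPM in parental untreated, 11.5, 11.3 and 11.7 CPM in parental Dox/IAA, 15.5, 13.9 and 15.3 CPM in untreated degron, and 17.1, 15.4 and 18.0 CPM in treated degron libraries. Its degron libraries lay above its parental ones with either treatment, by 0.79 (SE 0.112, adjusted p = 4.28e-05) untreated and 0.55 (SE 0.107, adjusted p = 0.000407) treated.

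Between the treated lines, 5 transport kinesins were higher (KIF3C, KIF5A, KIF13B, KIF21B and KIF3A), against 21.8% of all tested genes. KIF1B was lower, as were 23.1% of all tested genes. Either call was made for 6 of the 16, which is not above the 44.9% of all tested genes. The log2 differences lay between −0.24 for KIF1B and 0.91 for KIF3C. The cut-off of the study was passed by 0 of the 16, against 3.25% of all genes in the higher direction. An unadjusted p under 0.05 in edgeR was found for 9 of the 16, with log2 differences within 1. Of the 16657 tested genes, 8647 had such a p.

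**Figure D4:**
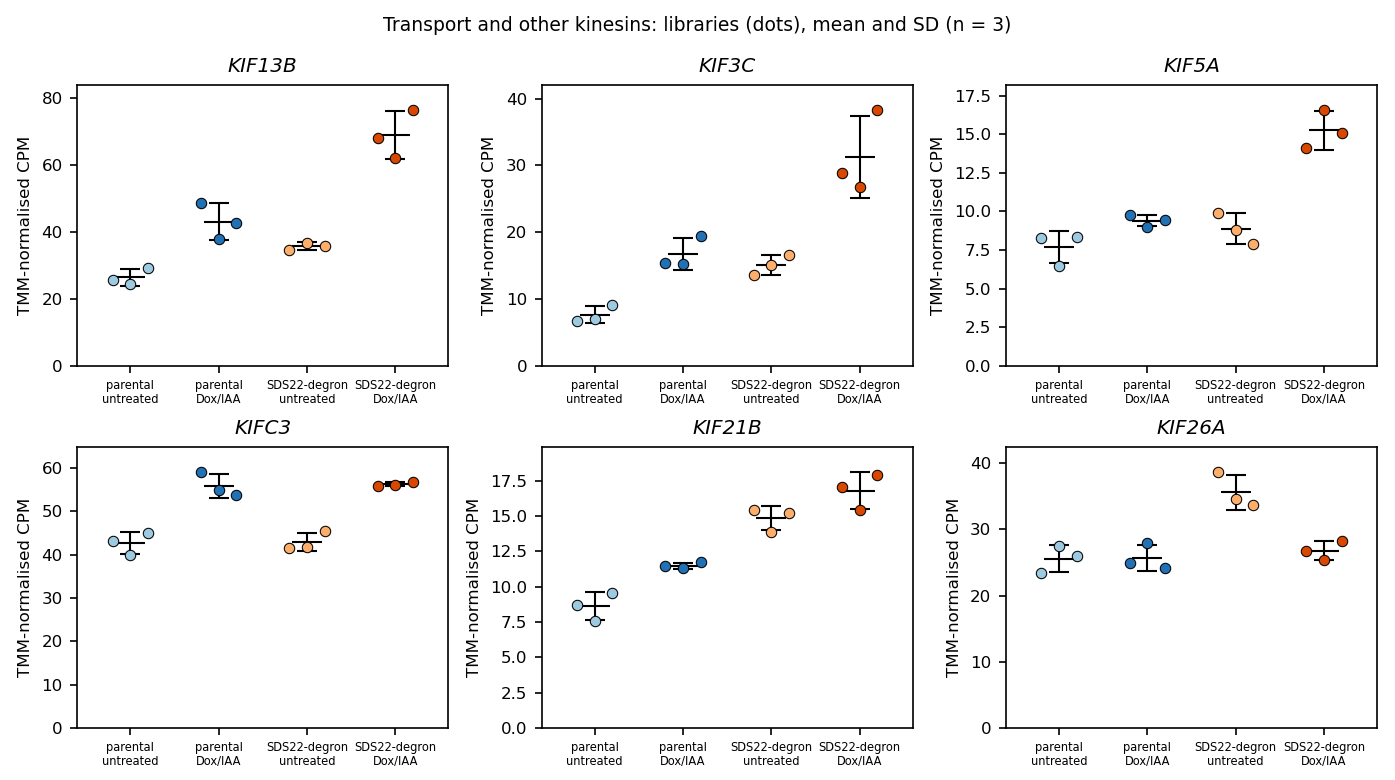
TMM-normalised CPM of the transport kinesins KIF13B, KIF3C, KIF5A, KIFC3 and KIF21B and of KIF26A in each library of the 4 conditions (dots, replicates 1 to 3 from left to right), with mean and SD (n = 3) on axes that begin at 0. KIF3C and KIF13B are higher with Dox/IAA in both lines, KIFC3 differs by 0.01 on the log2 scale between the lines, KIF21B is higher in both degron conditions, and KIF26A is highest in untreated degron cells.

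Of the remaining 7 tested kinesins, KIF26A, an atypical family member without ATPase activity, was the only one with an interaction past the threshold. It was at 23.4, 27.4 and 26.0 CPM in parental untreated, 24.9, 27.9 and 24.2 CPM in parental Dox/IAA, 38.6, 34.6 and 33.6 CPM in untreated degron, and 26.7, 25.4 and 28.2 CPM in treated degron libraries. The untreated degron libraries were above the other 9. It fell by 0.41 in degron cells (adjusted p = 0.000845), with 0.00 in parental cells and an interaction of −0.41 (adjusted p = 0.0384), which did not pass the threshold with a GC correction, alone or with the replicate block, or without any 1 of 7 libraries. KIF24, a depolymerase of centrioles, fell by 0.62 in degron cells and was lower by 0.67 between the treated lines. KIF26B rose in both lines. KIF12, at a low level of between 1.33 and 3.79 CPM, rose in parental cells (1.27), and its rise in degron cells (0.50, adjusted p = 0.0405) was lost in 12 of 22 alternatives, DESeq2 and the GC correction among them.

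KIF2A, a spindle pole and neurite depolymerase that could be placed with the mitotic motors, did not share their fall. Its response was −0.02 in degron cells, with an interval from −0.17 to 0.12. Counting KIF2A as mitotic would add a tested member that was not called in this comparison. It could not lower the number of mitotic kinesins called, which stayed at 13. Reads of KIF2A, KIF9, KIF4A, KIF20A, KIF18A and KIF24 could overlap with those of neighbouring genes on the opposite strand, and those of KIF15 and KIF2A with a neighbour on the same strand. The strand setting used in counting is not given in the sources used here.

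The known partners of both classes were examined as well. Among 14 partners and regulators of the mitotic kinesins, 13 fell in SDS22-degron cells upon Dox/IAA and 1, NUMA1, rose (0.42). The median was −1.31, and 25.5% of all tested genes fell. In the interaction 13 of 14 were lower, against 8.35% of all genes. PLK1, a mitotic kinase that also acts on KIF20A and the central spindle, was between 135 and 140.5 CPM in untreated and between 45.1 and 51.9 CPM in treated degron libraries, a fall by 1.52 on the log2 scale (SE 0.116, adjusted p = 1.01e-08). PRC1, the crosslinker that recruits KIF4A, dropped from between 226 and 234 CPM to between 92.8 and 106.9 CPM, or by 1.23 (SE 0.0895, adjusted p = 5.96e-09). In parental cells the responses were −0.19 for PLK1 and −0.04 for PRC1, and neither passed the test.

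Among 18 tested cargo adaptors, light chains and regulators of transport kinesins, 13 rose and 2 fell in degron cells, and 10 rose and 1 fell in parental cells. Of all tested genes, 26% rose and 25.5% fell in degron cells, and 15.9% and 15.7% in parental cells. The kinesin light chain KLC3 had a mean of 13.3 ± 0.603, 26.3 ± 3.57, 20.6 ± 1.98 and 37.2 ± 2.40 CPM in the 4 conditions (SD, n = 3, parental first), the same order as KIF3C. It rose by 0.99 in parental and 0.85 in degron cells. FEZ2, a relative of the kinesin-1 adaptor FEZ1, rose by 0.51 in degron cells (adjusted p = 0.000144), and its value in parental cells was 0.24 (adjusted p = 0.0672). The interaction was called for 3 of 18, near the 14.4% of all tested genes. Named after their values were seen, these were the light chain KLC4 (0.73), the scaffold MAPK8IP3 (0.69), which links kinesin-1 to lysosomes and axonal vesicles, and the scaffold MAPK8IP2 (−0.98).

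Cytoplasmic dynein and dynactin, the minus-end-directed counterpart, served as a comparison. Of 20 tested genes, 8 rose and 1 fell in SDS22-degron cells upon Dox/IAA, and 5 rose and 1 fell in parental cells, with medians of 0.07 and 0.10. The background was 26% of all tested genes that rose and 25.5% that fell in degron cells, and 15.9% and 15.7% in parental cells. The gene that fell in degron cells was NDE1, a dynein regulator with a role at the mitotic spindle, which was at 68.9 ± 3.93, 59.4 ± 4.89, 37.6 ± 1.14 and 24.0 ± 2.56 CPM in the 4 conditions. It fell by 0.65 in degron cells (adjusted p = 9.04e-06) and was lower by 0.87 between the untreated lines. The light intermediate chain DYNC1LI2 was lower in the degron line with and without treatment (−0.35 and −0.30) and rose in both lines upon Dox/IAA (0.19 and 0.23). Both genes lie on chromosome 16, like KIF22.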

How the data were processed

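The deposited values are counts per gene, not normalised, for 12 poly-A selected, stranded libraries sequenced as single reads, and the authors also give the length of each gene and its GC content as a percent. The submitters' processing notes name cutadapt 1.15, Bowtie2 2.3.3.1, STAR 2.5.2b, SAMtools 1.5, featureCounts 1.5.3 and GRCh38; the annotation release, the strand setting and the treatment of multiply mapping reads are not given in the sources used here. All 42 members overlapped their RefSeq position on GRCh38.p14.

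Counts were filtered by group (filterByExpr, minimum count 10), normalised by TMM (factors from 0.971 to 1.03) and modelled by group means in edgeR 4.0.16 (R 4.3.3). The quasi-likelihood F test replaced the likelihood ratio test of the study, which was run as an alternative. P values were adjusted by the Benjamini-Hochberg method over 16657 genes. CPM are TMM-normalised, and RPKM divide them by the deposited length. At between 12133915 and 14657508 counts per library, a log2 fold change had a median standard error of 0.110 (2 groups) or 0.156 (interaction). The procedure was tested on simulated data.

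The members, classes and lists were chosen with earlier results of these data known. Named in full were the 2 kinesins per mitotic subgroup with the smallest p in the interaction, the 4 transport or other kinesins with the smallest p upon Dox/IAA in SDS22-degron cells and the 4 between the untreated lines, and, by the comparison of the treated lines, the 2 genes of smallest p per partner list. KIF14, KIF15, KIF18A, KIF5B and other genes given beside them were chosen after their values were seen. Replicate numbers were taken to pair samples where every same-numbered pair correlated above 0.1, which held for Dox/IAA in parental cells (0.124 to 0.246) and the treated lines (0.101 to 0.138). Also run were DESeq2 1.42.0, the likelihood ratio test, other scalings and filters, a GC correction (loess, span 0.3), the replicate block, only the groups compared, the cut-off of the study and each library left out.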

Additional observations from a re-analysis of the deposited data

Results flagged for a closer look

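The Dox/IAA response differed between the SDS22-degron and the parental line for 14 of the 36 tested kinesins. This is by edgeR's interaction test (adjusted p under 0.05, 3 libraries per condition). Of all tested genes, 14.4% were called in either direction and 8.35% in the lower direction. The differences on the log2 scale, SDS22-degron minus parental, were −1.19 for KIF11, −0.80 for KIF15 and −1.19 for KIFC1 at the spindle poles. At chromosomes and plus ends they were −1.41 for KIF18B, −1.18 for KIF2C, −1.03 for KIF4A, −1.16 for KIF4B, −0.94 for KIF22 and −0.53 for KIF18A. In the central spindle group they were −1.59 for KIF14, −1.30 for KIF20B, −1.26 for KIF23 and −1.24 for KIF20A. Outside the mitotic class, KIF26A had a difference of −0.41, and its call was lost with a GC correction and in other alternatives.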

How the results depend on the processing

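For 180 results of single kinesins, recomputed under up to 22 alternatives, 3763 values kept their side of the threshold. A call was lost by 86 values and gained by 68, and 0 changed sign while called in either fit. Values called in neither fit could change sign and stay among the 3763. An example is KIF12 between the treated lines, with log2 differences from −0.10 to 0.10. The 13 mitotic kinesins were called upon Dox/IAA in SDS22-degron cells in every alternative run, and likewise in the interaction and between the treated lines in all but the cut-off of the study, which left 10. The median of the mitotic kinesins upon Dox/IAA in degron cells ranged from −1.32 to −1.19.

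In parental cells, the number of mitotic kinesins called was 4 with the replicate block, alone or with a GC correction, and 4 without a filter, against 2. Leaving out 1 library gave from 2 to 7. Between the untreated lines, leaving out 1 library gave from 3 to 5 mitotic and from 3 to 5 transport kinesins, and for the transport interaction from 0 to 3. By the cut-off of the study, 0 transport kinesins were called between the treated lines, 0 mitotic and 0 transport between the untreated lines, 0 mitotic upon Dox/IAA in parental cells, and 1 transport kinesin upon Dox/IAA in each line. The replicate block changed no other count of calls by over 1.5 times. The causes were not tested. The depth left KIF17, at 5 to 18 counts per library, with wide intervals, and 6 members without a test.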
